A study of Mus musculus with 6 samples.

Results

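Wnt signalling was read in the embryonic mouse lung through 10 genes of the pathway, chosen by symbol for their roles, with earlier results of these data known: the ligands *Wnt2*, *Wnt2b*, *Wnt5a*, *Wnt5b*, *Wnt7b* and *Wnt11*, the target genes *Axin2* and *Lef1*, and the secreted antagonists *Sfrp1* and *Wif1*. All 10 are among the 23420 genes listed in the deposited table. RNA-Seq was performed on lungs of stage E11.5dpc from control (Raptorf/+; ShhCre/+) and mutant (Raptorf/f; ShhCre/+) embryos. Raptor (*Rptor*) is the subunit that defines the kinase complex mTORC1. Both groups carry *ShhCre*, a Cre recombinase made under the control of the *Shh* gene and active in the lung epithelium, and both carry at least 1 floxed *Rptor* allele, so the control lungs are not wild type and the mesenchyme of the mutant lungs keeps the gene. Each group is 3 pools of several whole lungs, and an RNA level from a pool of whole lungs does not tell fewer cells of a type from less RNA per cell.

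Wnt ligands are secreted proteins that bind Frizzled receptors. In the canonical branch this stabilizes β-catenin, which acts with TCF and LEF factors at target genes, while other branches act on cell polarity and movement. In the developing lung, *Wnt2* and *Wnt2b* from the mesenchyme specify the respiratory lineage, *Wnt7b* from the epithelium promotes growth of the mesenchyme, and *Wnt5a* shapes the distal airways. *Axin2* encodes a feedback inhibitor that canonical signalling induces, and secreted antagonists of the Sfrp and Wif1 kind bind the ligands outside the cell.

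Values are normalized counts, that is, reads per gene after correction for the depth of each library, and ± is the SD over 3 pools. The reads counted to genes, recovered from the deposited values, numbered between 20197642 and 21276090 per library. *Rptor* had 2199 ± 77.0 normalized counts in control and 2103 ± 69.1 in mutant pools and the groups overlapped (log2 fold change -0.06, limma adjusted p = 0.584). These counts are of whole lungs, whose mesenchyme keeps the gene, and why the level did not differ was not tested. Of 20 epithelium markers, 7 fell and none rose, where 0.501% of all tested genes passed the test. Their log2 fold changes were below 0 for 17 and above 0 for 3, with a median of -0.41, and their summed normalized count was 25860 to 30023.7 in control and 21753.6 to 23226.7 in mutant pools. None of the 20 epithelium or 10 mesenchyme markers was at 0 in every pool. Control pool 3 stood apart from the other control pools, and *Xist*, an RNA of female cells, was at 4598.8, 308.9 and 12989.1 normalized counts in the control pools (1 to 3) against 41.9, 465.7 and 161 in the mutant pools (1 to 3). *Ddx3y*, a gene of the Y chromosome, had 1015.6, 1198.4 and 734.5 in control and 1211.8, 1198.1 and 1176.9 in mutant pools (1 to 3). Control pools 1 and 3 thus had more *Xist* and less *Ddx3y* than any mutant pool, so sex was not balanced between the groups. The labels do not give the sex of the pooled embryos, and the part of sex in the levels of other genes was not tested. Where leaving out control pool 3 changed a call or moved a value strongly, the value without it is given. That fit called 468 of 16993 genes, where the fit with all pools called 86 of 17168.

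None of the 10 genes passed the test over all genes (limma on log2 values, adjusted p under 0.05), where 0.501% of the 17168 tested genes did (0.186% higher and 0.315% lower). The log2 fold changes, mutant minus control, were between -0.42 and 0.27 and their median was 0.04, against -0.00 for all tested genes. The control and mutant pools did not overlap for 5 of the 10 genes, of which *Wnt2b* and *Wnt11* were higher and *Wnt7b*, *Axin2* and *Lef1* lower in the mutant pools. Groups did not overlap for 20.2% of all tested genes, 9.77% higher and 10.5% lower. The same 5 genes had an unadjusted p under 0.05, which 13.6% of tested genes had (6.67% higher and 6.89% lower). On the reads recovered from the table, edgeR called 0 of the 10 (0.539% of 14670 genes tested there) and DESeq2 called 1, *Wnt7b* (1.25% of 19100 genes). The plot of all 10 genes by pool shows these values.

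**Figure D1:**
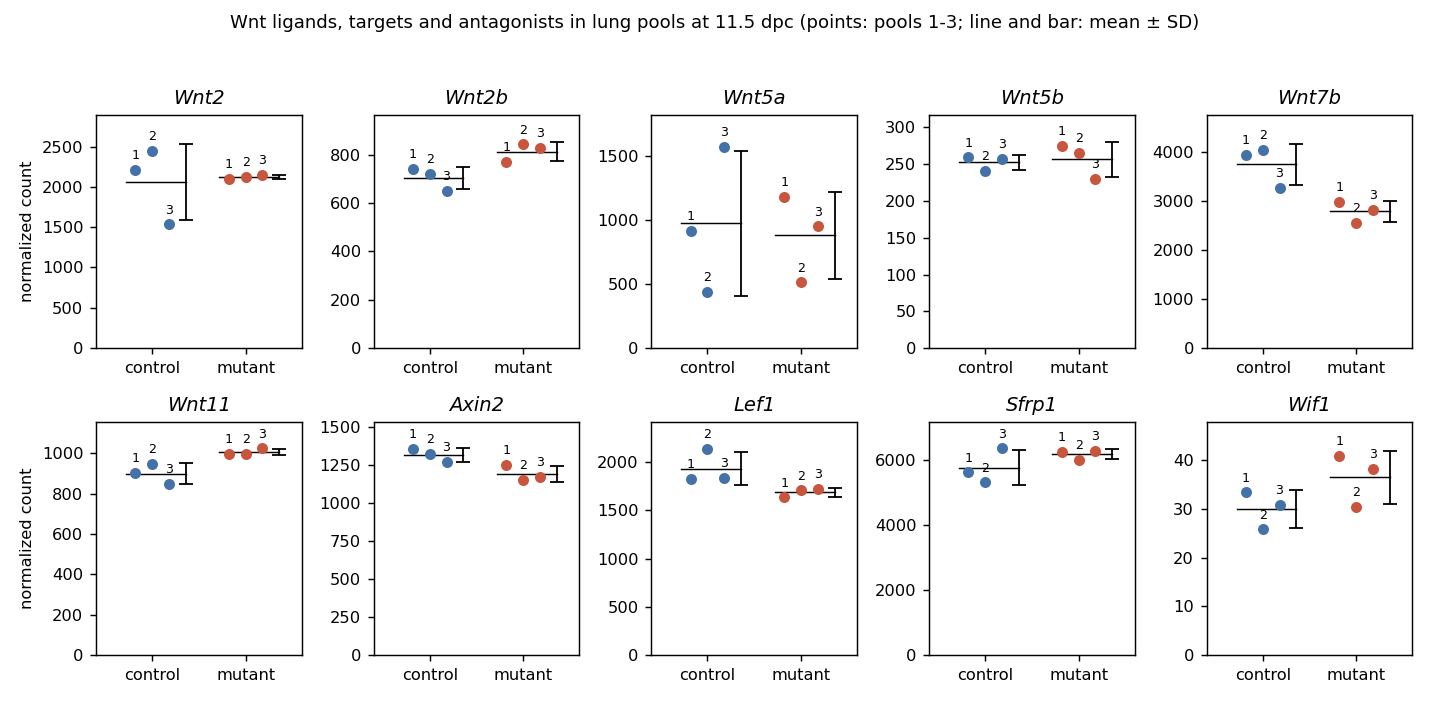
Normalized counts (vertical axes, from 0) of the 10 Wnt genes in 3 control and 3 mutant pools of lungs of stage E11.5dpc; points are pools, numbered as in the labels, and the line and bar are the mean ± SD. The pools of the groups are separate for Wnt2b, Wnt7b, Wnt11, Axin2 and Lef1 and overlap for the other genes, and Wnt5a spreads most within each group.

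Of the 6 ligands chosen, the largest difference on the log2 scale was that of *Wnt7b*, which is made by the lung epithelium and spans 85535437 to 85582473 of chromosome 15 in GRCm38. Its normalized counts were 3949.5, 4047.6 and 3275.1 in the control pools (1 to 3) against 2992.7, 2567.8 and 2824.8 in the mutant pools (1 to 3). Every mutant pool lay below every control pool, and control pool 3 was the nearest to them. The mean was 3757 ± 421 in control and 2795 ± 214 in mutant pools, a ratio of 0.744 or -0.42 in log2 fold change (SE 0.08, 95% interval -0.60 to -0.24, limma adjusted p = 0.0604). Without control pool 3 the log2 fold change was -0.52 and passed the test (limma adjusted p = 0.000553). This was the only 1 of 6 fits without 1 pool in which it passed, the others giving adjusted p of 0.0724 to 0.306. DESeq2 on recovered reads also called *Wnt7b* lower (adjusted p = 4.2e-05), whereas edgeR did not (adjusted p = 0.0637).

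Since *Wnt7b* is an epithelial transcript, it was set beside the epithelium markers of the same pool. The log2 ratio of *Wnt7b* to the mean of the 20 markers was 2.10, 2.07 and 1.93 in the control pools (1 to 3) against 2.0, 1.93 and 1.95 in the mutant pools (1 to 3). On this scale the groups overlapped. The difference was -0.08 (two-sided exact permutation test, p = 0.3, adjusted p = 0.6 over 6 ratios, where 0.1 is the smallest p that 3 pools against 3 can give). The markers did not move as 1 block, since their log2 fold changes ran from -0.97 (*Cdh1*) to 0.44 and 3 of 20 were above 0. *Krt19*, a keratin, was at 0.44 with separate groups (limma adjusted p = 0.0734). The others above 0 were *Sox9* (0.12) and *Id2* (0.01), and *Shh* was at -0.03, all with overlapping groups. The ratio thus rests on which markers are averaged. The part of fewer epithelial cells or of less transcript per cell in the *Wnt7b* level was not tested. *Epcam*, an adhesion protein of epithelial cells, had 1880, 2184 and 1559.5 normalized counts in control and 1652.2, 1419.7 and 1563.6 in mutant pools, so that control pool 3 was as low as the mutant pools for this marker.

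**Figure D2:**
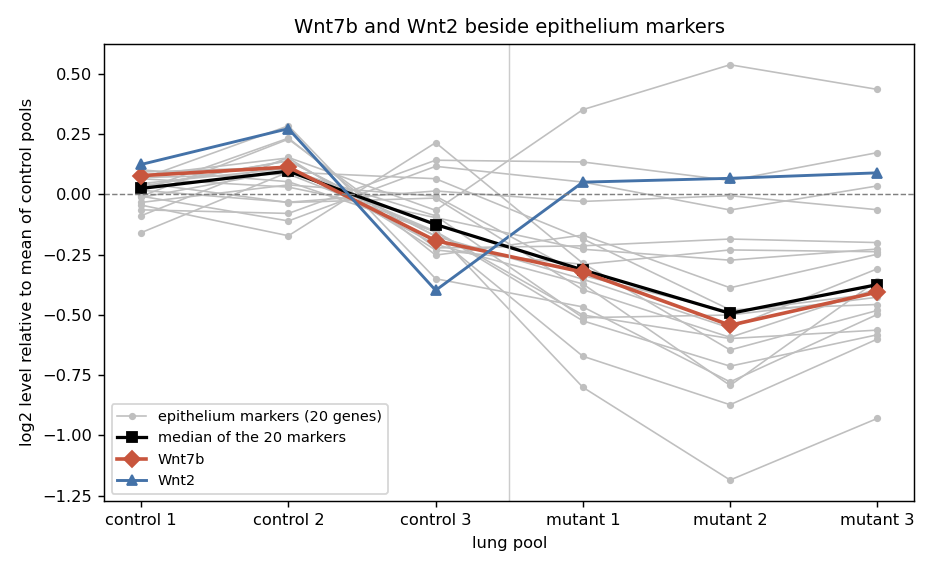
Log2 level relative to the mean of the control pools (vertical axis) of Wnt7b, Wnt2 and 20 epithelium markers in the 6 pools (horizontal axis), with the median of the markers in black; lines join the values of 1 gene and carry no order of pools. Wnt7b runs close to the median of the markers in all pools and is below 0 in control pool 3 and in all 3 mutant pools, while Wnt2 is low only in control pool 3.

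*Wnt2*, the mesenchymal ligand on chromosome 6 (17988940 to 18030585), had 2205.1, 2444.3 and 1534.7 normalized counts in control and 2095.6, 2118.8 and 2152.5 in mutant pools. The mutant pools lay close together, inside the range of the control pools, of which control pool 3 was far below the other two. The log2 fold change was 0.07 (SE 0.13, 95% interval -0.23 to 0.37, limma adjusted p = 0.866), and without control pool 3 it was -0.13 (limma adjusted p = 0.188). Within a pool, the log2 ratio of the normalized count of *Wnt7b* to that of *Wnt2*, without correction for length, was 0.84, 0.73 and 1.09 in control and 0.51, 0.28 and 0.39 in mutant pools. This ratio of the epithelial to the mesenchymal ligand was lower in all 3 mutant pools than in any control pool, by -0.49 (two-sided exact permutation test, p = 0.1, the smallest possible, adjusted p = 0.6 over 6 ratios).

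*Wnt2b*, which acts with *Wnt2* in the early foregut, lies on chromosome 3 (104945272 to 104961921). It had 741.6, 719 and 651 normalized counts in control and 769.4, 842.2 and 827.4 in mutant pools. No mutant pool was as low as a control pool, with a narrow gap between control pool 1 and mutant pool 1, and the log2 fold change was 0.21 (SE 0.07, 95% interval 0.06 to 0.36, limma adjusted p = 0.205). Markers of the mesothelium, the cell layer covering the lung, had a summed normalized count of 8032.23 to 8723.42 in control and 9222.41 to 9841.9 in mutant pools. Of the 7, 6 were above 0 in log2 fold change, none was at 0 and 1 was called higher, as were 0.186% of all tested genes. For the 10 mesenchyme markers the sums were 25582.1 to 26402.7 and 27238.1 to 28534.5, with 8 of 10 above 0 and none called. The part of these cell types in the *Wnt2b* level was not tested. The log2 ratio of *Wnt2* to *Wnt2b* was 1.52 ± 0.27 in control and 1.38 ± 0.06 in mutant pools (two-sided exact permutation test, p = 0.5).

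*Wnt11*, a ligand known mainly for non-canonical signalling, lies on chromosome 7 (98835112 to 98855195) and had 903.7, 946.3 and 845.9 normalized counts in control pools. In the mutant pools it had 998.3, 997.1 and 1023.7. The groups did not overlap, the mutant pools differed little among themselves, and the log2 fold change was 0.16 (SE 0.06, 95% interval 0.04 to 0.29, limma adjusted p = 0.235). *Wnt5b* on chromosome 6 (119432531 to 119544347), also a ligand of the non-canonical branch, had between 240.7 and 259.3 normalized counts in control and between 229.7 and 274.9 in mutant pools. The range of its control pools lay inside that of the mutant pools, and the log2 fold change was 0.02 (95% interval -0.19 to 0.24, limma adjusted p = 0.948).

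*Wnt5a* on chromosome 14 (28504750 to 28527448) varied more within each group than between the groups. Its normalized counts were 916.4, 441.1 and 1570.5 in the control pools (1 to 3) against 1181.2, 513.8 and 952.1 in the mutant pools (1 to 3). Pool 2 was the lowest of either group and control pool 3 the highest of all. The log2 fold change was -0.05 with a 95% interval of -0.95 to 0.86 (limma adjusted p = 0.974), which spans falls and rises of similar size. Without control pool 3 it was 0.39 (limma adjusted p = 0.56). Its residual SD on the log2 scale was at or above that of 99.9% of the tested genes with a mean of at least 100 normalized counts. The log2 ratio of *Wnt5a* to *Wnt5b* was 1.76 ± 0.87 in control and 1.70 ± 0.65 in mutant pools.

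**Figure D3:**
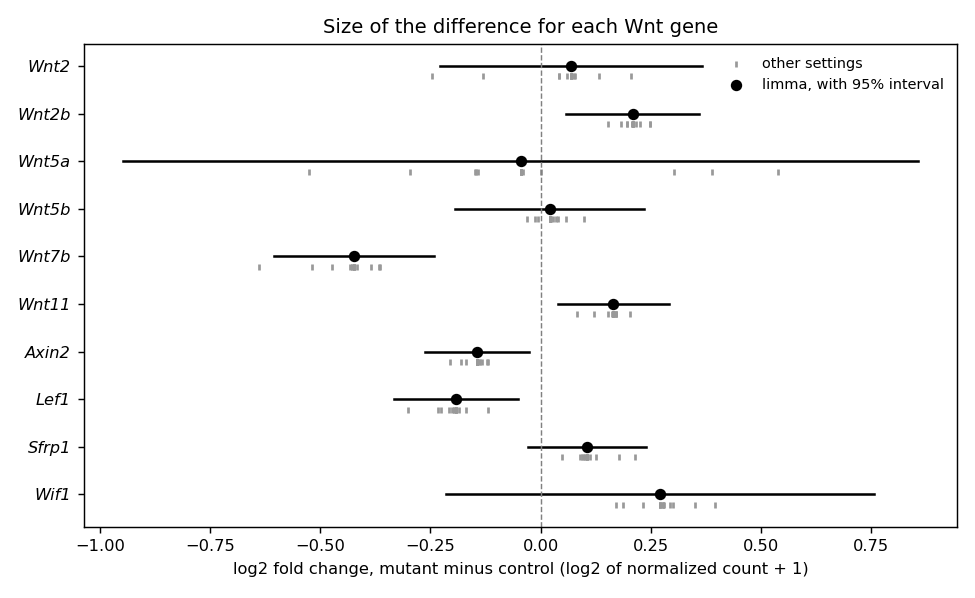
Log2 fold change, mutant minus control (horizontal axis), of each Wnt gene from limma with its 95% interval, 3 pools a group; the dashed line marks no difference and grey ticks are values under other settings, scaling to epithelium markers left out. The interval lies below 0 for Wnt7b, Axin2 and Lef1 and above 0 for Wnt2b and Wnt11, and it is widest for Wnt5a, from -0.95 to 0.86.

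To compare the ligands with each other, normalized counts were divided by the length of their annotated exons in kilobases. On this scale *Wnt2* stood at 914 ± 209 and *Wnt7b* at 767 ± 85.9 counts per kilobase in control pools, where their ranges overlapped. In mutant pools *Wnt2* stood at 941 ± 12.7 and *Wnt7b* at 571 ± 43.7, and every pool of *Wnt2* was above every pool of *Wnt7b*. This order rests on the annotated exon lengths, 2.255 kilobases for *Wnt2* and 4.898 for *Wnt7b*. Without division by length *Wnt7b* was above *Wnt2* in every pool, and which transcript forms these lungs make was not tested. These ligands were followed by *Wnt11* (217 ± 12.2 in control and 243 ± 3.63 in mutant pools) and *Wnt2b* (168 ± 11.2 and 194 ± 9.16). *Wnt5a* (125 ± 72.5 and 113 ± 43.3) and *Wnt5b* (95.1 ± 3.86 and 96.7 ± 9.0) came last, and their ranges overlapped in both groups.

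Of the counts per kilobase of all 19 Wnt ligands, the 6 ligands held between 93.0% and 96.5% in every pool. The share of *Wnt7b* was 32.1%, 32.5% and 31.0% in control and 26.4%, 24.1% and 25.4% in mutant pools. The shares of *Wnt7b* were therefore close together within each group, control pool 3 included, and separate between the groups. *Wnt2* held 38.9%, 42.6% and 31.6% in control and 40.1%, 43.2% and 42.1% in mutant pools, with overlap. The shares of *Wnt11* were also separate, 8.70% to 9.48% in control and 10.4% to 11.1% in mutant pools. Those of *Wnt2b* were separate too, 6.72% to 7.18% and 7.91% to 9.22%. The shares of a pool add up to a fixed total, so a lower share of any ligand raises those of others. The shares are a description of the ligand mixture in RNA, rest on the same annotated exon lengths and were not tested.

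**Figure D4:**
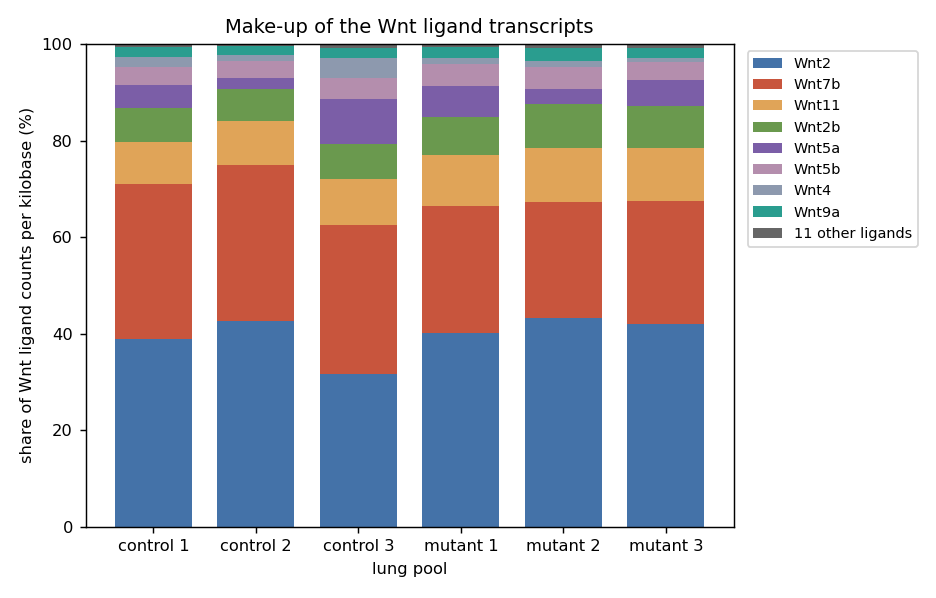
Share of each ligand (vertical axis, percent) in the counts per kilobase of exon of all 19 Wnt ligands, by pool. Wnt2 and Wnt7b together hold the greater part in each pool, and the Wnt7b share is 31.0% to 32.5% in control and 24.1% to 26.4% in mutant pools.

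The targets *Axin2* and *Lef1* were both slightly lower in the mutant pools. *Axin2* on chromosome 11 (108920349 to 108950783) had 1353.5, 1319.3 and 1265.3 normalized counts in control and 1248.6, 1148.1 and 1168 in mutant pools. The groups were separate, though mutant pool 1 lay just below control pool 3, and the log2 fold change was -0.14 (SE 0.05, 95% interval -0.26 to -0.03, limma adjusted p = 0.262). *Lef1*, a DNA-binding partner of β-catenin on chromosome 3 (131110471 to 131224356), had 1825, 2136.4 and 1840.8 normalized counts in control and 1634.8, 1707 and 1723.6 in mutant pools. Control pool 2 was the highest, no mutant pool reached a control pool, and the log2 fold change was -0.19 (SE 0.06, 95% interval -0.33 to -0.05, limma adjusted p = 0.213). With scaling to the epithelium markers, which moved the median of all tested genes to 0.35, both differences turned in sign, to 0.20 for *Axin2* and 0.16 for *Lef1*. The log2 ratio of *Lef1* to *Axin2* was 0.56 ± 0.13 in control and 0.51 ± 0.10 in mutant pools (two-sided exact permutation test, p = 0.7).

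Of 8 other target genes of canonical signalling, 1 passed the test, and the groups were separate for 2 and overlapped for 6. Over all tested genes, 0.501% passed and the groups were separate for 20.2%. The log2 fold change of all 8 was below 0 in the scaling of the deposited table, with a median of -0.15 against -0.00 for all tested genes. *Ccnd1*, which encodes cyclin D1 of the cell cycle, had 7690.8, 8201.7 and 7662.5 normalized counts in control and 6804.9, 6370.1 and 6571.3 in mutant pools. It fell from 7852 ± 303 to 6582 ± 218 (log2 fold change -0.25, SE 0.04, limma adjusted p = 0.0398), and scaled to the epithelium markers the value was 0.09. *Ccnd1* passed in 2 of 6 fits without 1 pool, those without control pool 2 or 3. *Sp5*, a transcription factor gene switched on by Wnt signalling, had 461.6, 495.9 and 391.6 normalized counts in control and 300.4, 371.6 and 381.8 in mutant pools (log2 fold change -0.36, limma adjusted p = 0.204, and 0.0331 without control pool 3). *Tnfrsf19*, a receptor of the tumour necrosis factor family, differed by -0.14 on the log2 scale (limma adjusted p = 0.328).

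Promoters were searched for ATCAAAG, 1 form of the site that TCF and LEF factors bind, on either strand, in the 250 bases before each start listed by RefSeq (GRCm38.p6). The letters occur in 3.21% of all 32851 windows and before at least 1 start of 3.72% of 27025 genes. The shorter core CAAAG occurs in 48.6% of the windows, on either strand, and was not marked or counted as a match. Of the 10 Wnt genes, 7 are in that table, and *Wnt11* and *Wnt5b* hold a match. Of the 8 other targets, 5 are in it, and *Sp5* and *Tnfrsf19* hold a match. The windows of both targets described above, of *Sp5* and of *Wnt11* are printed 5′ to 3′ on the strand of the gene, with any match in capitals, so that a reader can see windows of targets and of a ligand with and without a match. They are chr11:108920099-108920348 for *Axin2*, chr3:131110047-131110296 for the first start of *Lef1*, chr2:70474673-70474922 for *Sp5* and chr7:98834862-98835111 for *Wnt11*, all on the plus strand.
Axin2: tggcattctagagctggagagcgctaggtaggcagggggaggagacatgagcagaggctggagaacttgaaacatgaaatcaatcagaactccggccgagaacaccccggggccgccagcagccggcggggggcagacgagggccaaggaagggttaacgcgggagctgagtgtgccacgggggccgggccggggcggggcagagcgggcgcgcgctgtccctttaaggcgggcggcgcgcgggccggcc
Lef1: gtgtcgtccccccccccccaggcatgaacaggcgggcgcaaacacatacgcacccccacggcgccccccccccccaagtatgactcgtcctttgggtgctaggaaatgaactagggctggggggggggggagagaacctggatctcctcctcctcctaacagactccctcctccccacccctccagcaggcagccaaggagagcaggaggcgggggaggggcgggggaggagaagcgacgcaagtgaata
Sp5: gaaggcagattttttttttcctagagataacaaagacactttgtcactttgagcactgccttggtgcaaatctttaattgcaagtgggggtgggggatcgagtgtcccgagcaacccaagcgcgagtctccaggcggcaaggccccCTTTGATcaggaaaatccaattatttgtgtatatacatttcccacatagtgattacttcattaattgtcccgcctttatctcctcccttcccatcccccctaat
Wnt11: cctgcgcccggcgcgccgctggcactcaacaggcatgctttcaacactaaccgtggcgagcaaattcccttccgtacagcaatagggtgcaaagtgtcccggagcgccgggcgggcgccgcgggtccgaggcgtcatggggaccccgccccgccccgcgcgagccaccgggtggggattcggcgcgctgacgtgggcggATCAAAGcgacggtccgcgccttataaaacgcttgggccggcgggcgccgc
The match ends 97 bases before the start in *Sp5*, on the opposite strand, and 44 bases before it in *Wnt11*. These windows are short, so the lack of a match in *Axin2* and *Lef1* says only that the letters are not within them.

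The antagonist *Sfrp1* on chromosome 8 (23411502 to 23449632) had the highest level of the 10 genes per kilobase, 1318 ± 123 counts per kilobase in control and 1414 ± 34.9 in mutant pools, above every other gene of the set in every pool of its group. Its normalized counts were 5618.3, 5309.1 and 6355.4 in control and 6260.3, 6006.3 and 6279.8 in mutant pools. Control pool 3 was higher than all mutant pools, so the groups overlapped. The log2 fold change was 0.11 (SE 0.06, 95% interval -0.03 to 0.24, limma adjusted p = 0.477), and without control pool 3 it was 0.18 (limma adjusted p = 0.0281).

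*Wif1* on chromosome 10 (121033960 to 121100650) had the lowest level, 12.4 ± 1.59 counts per kilobase in control and 15.1 ± 2.25 in mutant pools. Its normalized counts were 33.4, 25.8 and 30.8 in control and 40.9, 30.4 and 38.3 in mutant pools. The groups overlapped through mutant pool 2 (log2 fold change 0.27, 95% interval -0.21 to 0.76, limma adjusted p = 0.637), and at such counts a change of this size was not detectable. The log2 ratio of *Sfrp1* to *Wif1* was 7.54 ± 0.16 in control and 7.38 ± 0.18 in mutant pools (two-sided exact permutation test, p = 0.2).

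The rest of the pathway was read through 83 further genes in 8 lists, of which 77 were tested. *Ccnd1* and *Fgf10* passed the test, which is 2 of 77 against 0.501% of all tested genes. Among 12 tested antagonists, 8 were below 0 with a median log2 fold change of -0.23, 4 of them at an unadjusted p under 0.05. None passed the limma test. Of all tested genes, 6.89% were lower at an unadjusted p under 0.05. *Kremen1*, a receptor of Dkk proteins, differed by -0.22 on the log2 scale (limma adjusted p = 0.141). *Dkk1*, which blocks the co-receptors Lrp5 and Lrp6, had 66.8, 25.8 and 123.3 normalized counts in control and 24.5, 21.6 and 31.4 in mutant pools (limma adjusted p = 0.275). *Sostdc1*, an antagonist of Wnt and BMP ligands, had 43.2, 21.7 and 83.5 in control and 17.4, 14.7 and 15.7 in mutant pools (limma adjusted p = 0.176). For both, control pool 2 was near the mutant pools and control pool 3 far above them. DESeq2 on recovered reads called both lower (adjusted p = 0.0494 for *Dkk1* and 0.0397 for *Sostdc1*), where it called 1.25% of 19100 genes. In edgeR neither passed (adjusted p = 0.19 and 0.144). The log2 fold change of *Dkk1* was -1.20, and it was -0.68 without control pool 3 (limma adjusted p = 0.347), -1.79 without control pool 2 (adjusted p = 0.0332) and -0.055 with log2 *Xist* as a covariate. That of *Sostdc1* was -1.38, and it was -0.91 without control pool 3 (limma adjusted p = 0.182), -1.86 without control pool 2 (adjusted p = 0.0347) and -0.46 with the *Xist* covariate.

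**Figure D5:**
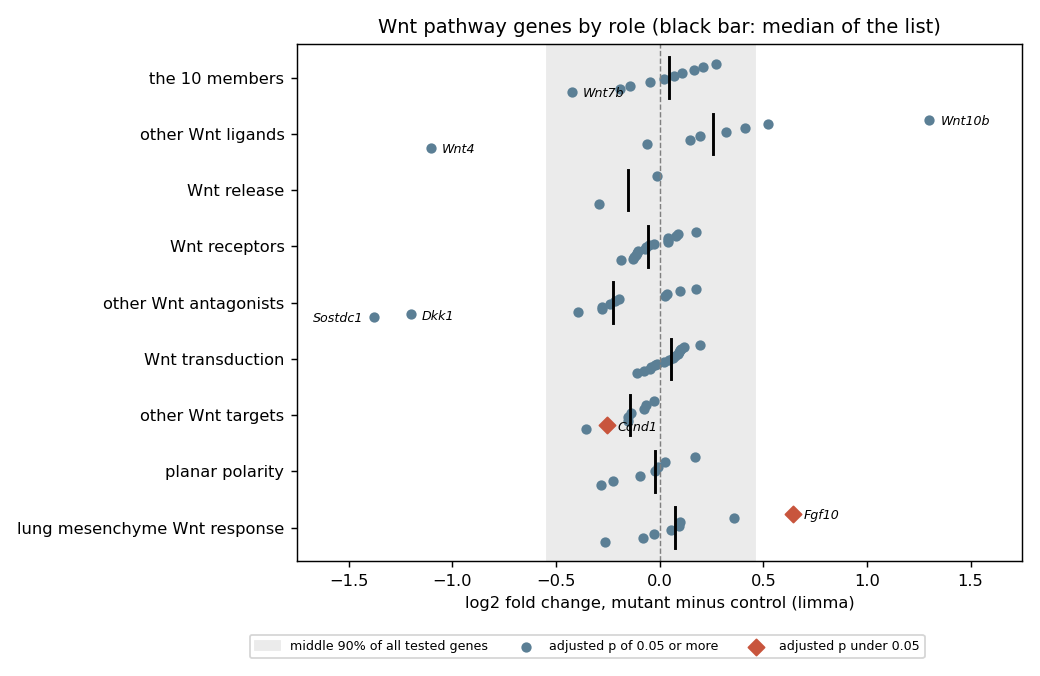
Log2 fold change, mutant minus control (horizontal axis), of each tested gene in 9 lists of Wnt pathway genes; points are genes, black bars are list medians and the grey band holds the middle 90% of all tested genes. Ccnd1 and Fgf10 are past the adjusted threshold, and Wnt4, Dkk1 and Sostdc1 lie far to the left without passing it.

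Of 13 further ligands, 8 were tested and none passed. *Wnt4* had 214.1, 125 and 368.8 normalized counts in control and 120.6, 107.9 and 75.6 in mutant pools (log2 fold change -1.10, limma adjusted p = 0.176), with control pool 3 again the highest. Its log2 fold change was -0.71 without control pool 3 (limma adjusted p = 0.124), -1.49 without control pool 2 (adjusted p = 0.0332) and -0.36 with the *Xist* covariate (adjusted p = 0.777). *Wnt9a* differed by 0.14 on the log2 scale (limma adjusted p = 0.618), and *Wnt10b*, with at most 8.9 normalized counts in any pool, is too low to compare. Of the genes for release of ligands, *Porcn*, the enzyme that attaches a lipid to Wnt proteins, had 308.4, 312 and 320.1 in control and 256.5, 239.2 and 272.9 in mutant pools (log2 fold change -0.29, limma adjusted p = 0.169). The mutant pools were separate from the control pools, which lay close together. *Wls*, the carrier of Wnt proteins to the cell surface, had a log2 fold change of -0.01.

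No receptor passed the test. None of 16 had an unadjusted p under 0.05, which 13.6% of all tested genes had. Their log2 fold changes were between -0.19 (*Fzd6*, a Frizzled receptor, limma adjusted p = 0.456) and 0.18, with 0.08 for *Ptk7* and 0.09 for *Fzd2*. The groups were separate for *Ptk7*, higher, and *Fzd6*, lower, and overlapped for the other receptors, where 20.2% of all tested genes were separate. Among 16 genes of signal transduction, 2 were higher at an unadjusted p under 0.05, as were 6.67% of all tested genes, and none passed. The lowest p were those of *Bcl9l*, a β-catenin cofactor (log2 fold change 0.19, limma adjusted p = 0.124), *Tcf7l1*, a TCF factor (0.12, adjusted p = 0.241), and *Dvl2*, a Dishevelled protein (0.09, adjusted p = 0.369). Of 7 genes of planar cell polarity, *Celsr1* had 1971.3, 1991.8 and 1969 normalized counts in control and 1752.3, 1572.7 and 1749.1 in mutant pools (log2 fold change -0.23, limma adjusted p = 0.1, and 0.0355 without control pool 3). *Celsr2* and *Vangl2* had log2 fold changes of -0.28 and -0.09.

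In the list of 8 mesenchymal genes that respond to or act with Wnt signalling in the lung, *Fgf10*, the ligand that draws out epithelial buds, had 603.1, 610.6 and 493 normalized counts in control and 844, 978.5 and 841.2 in mutant pools. The groups were far apart, and it rose by 0.64 on the log2 scale (SE 0.09, limma adjusted p = 0.0322), passing in 2 of 6 fits without 1 pool, those without control pool 2 or 3. *Acta2*, an actin of smooth muscle, differed by 0.36 on the log2 scale (limma adjusted p = 0.134, and 0.0481 and 0.0315 without control pools 2 and 3). DESeq2 on recovered reads called *Acta2* higher (adjusted p = 0.00553), whereas edgeR did not (adjusted p = 0.139). *Pdgfra*, a growth factor receptor of the mesenchyme, differed by 0.09 (by 0.22, limma adjusted p = 0.0169, without control pool 3). Smooth muscle markers summed to 4349.59 to 5748.12 normalized counts in control and 6217.12 to 6325.72 in mutant pools, with 6 of 6 above 0 and none called. Their part in the *Acta2* level was not tested.

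R-spondins, secreted proteins that strengthen Wnt signalling by keeping Frizzled receptors at the cell surface, were in none of these lists and were added with their values known. *Rspo2*, made by the lung mesenchyme, had 1406.6, 1406 and 1375.6 normalized counts in control and 1879, 2014.9 and 1856.1 in mutant pools. The control pools, control pool 3 included, lay close together and far below the mutant pools, and *Rspo2* rose by 0.46 on the log2 scale (SE 0.05, limma adjusted p = 0.00728). *Rspo3* had 118.8, 106.4 and 119.3 in control and 148.2, 185.3 and 156.1 in mutant pools without overlap (log2 fold change 0.50, limma adjusted p = 0.132). *Rspo1* (log2 fold change 0.07) and *Rspo4* (-0.04), the latter with at most 19.9 normalized counts, overlapped between groups. Leaving out 1 pool gave *Rspo2* log2 fold changes of 0.42 to 0.48, which did not pass without control pool 1 (limma adjusted p = 0.125) or mutant pool 3 (adjusted p = 0.071).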

How the data were processed

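Whole lungs of stage E11.5dpc had been pooled by genotype into 3 control and 3 mutant pools, and the labels gave the group of each library. Mutants of several litters were combined in the study, with littermates as controls, but which litters a pool holds is not given in the sources used here, and p-values measure the spread between these pools. The authors deposited 1 table of signal values, which are normalized counts per gene. The submitters' notes name Trim Galore, HISAT2, featureCounts, DESeq2 and the build mm10, without an order or an annotation, and do not say whether counting used strand. The authors' mean, fold changes, standard errors, statistics and p-values in the deposited table were not used. The values of each library were whole multiples of a single step (100% within 0.01 of a read), which gave back the reads counted to genes. Intervals and tests thus cover the spread between pools of 20197642 such reads or more.

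The normalized counts were compared as log2(value + 1), with a pseudocount of 1, by limma 3.58.1 in R 4.3.3 (lmFit, eBayes with trend, two-sided) for the 17168 genes that reached 1 in 3 or more libraries, and p-values were adjusted over all of them by the Benjamini-Hochberg method (threshold 0.05). This scale understates the changes of low genes. Alternatives were edgeR 4.0.16 (quasi-likelihood, TMM) and DESeq2 1.42.0 on recovered reads, limma without the trend, upper-quartile scaling, other filters, a pseudocount of 0.1, a replicate block, log2 *Xist* as a covariate, scaling to 20 epithelium markers and leaving out each pool. Log2 ratios within a pool were compared by two-sided exact permutation tests. No pair of pools of a group agreed within counting noise (chi-square per degree of freedom at least 2.13).

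The 10 genes and the gene lists were chosen with earlier results of these data known. Named genes are these 10, up to 3 genes with the lowest p of each list, those past the threshold, *Rptor* and listed markers. *Frzb*, *Tnc*, *Dkk2*, *Sost*, *Xist*, *Ddx3y*, *Krt19*, *Cdh1*, *Sox9*, *Id2*, *Shh*, *Afp* and the R-spondins were named after their values were seen. *Adgre1* and *Mrtfb* are listed as *Emr1* and *Mkl2*. Coordinates and exon lengths are those of GENCODE M21 (GRCm38, the assembly of mm10), and promoter sequences those of RefSeq. Exons of genes on the opposite strand cover 13.7% of the exon bases of *Lef1*, 8.8% of *Wnt11*, 6.61% of *Wnt7b*, 4.58% of *Wnt5a* and 3.8% of *Axin2*, and without knowledge of the strand their reads cannot be told apart.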

Additional observations from a re-analysis of the deposited data

How the results depend on the processing

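No paired structure was found: same-numbered control and mutant pools had correlations of their deviations of -0.019, 0.101 and 0.031. With the replicate block, 71 genes were called against 86, with 1 of the 10 Wnt genes (*Wnt7b*, adjusted p = 0.0487) and 1 of the other pathway genes, since *Ccnd1* no longer passed (adjusted p = 0.0569). Genes called numbered 8 without the trend, 239 with DESeq2 and 10302 when scaled to epithelium markers (10212 higher and 90 lower, against 32 and 54), which moved the median of all genes to 0.35. Without 1 pool they numbered 1 to 468 (1 without control pool 1 or mutant pool 3, and 147 and 468 without control pools 2 and 3, 12 and 21 without mutant pools 1 and 2). Of the 10 Wnt genes, 1 was called with DESeq2, 1 with the *Xist* covariate (*Wnt7b*, -0.64, adjusted p = 0.011), 7 when scaled to epithelium markers, and 0 to 2 without 1 pool, 2 being the number without control pool 3. Of the other pathway genes (2 called), 0 were called without the trend, 5 with DESeq2, 1 with the *Xist* covariate, 45 when scaled to epithelium markers and 0 to 7 without 1 pool (0 without control pool 1 or any mutant pool, 6 and 7 without control pools 2 and 3). The 5 called with DESeq2 were *Ccnd1*, *Dkk1* and *Sostdc1*, which were lower, and *Fgf10* and *Acta2*, which were higher. Without the trend, adjusted p were 0.243 for *Ccnd1*, 0.226 for *Fgf10* and 0.17 for *Rspo2*. With the *Xist* covariate that of *Fgf10* was 0.148. The cause of these changes was not tested, except that fits without 1 pool hold fewer samples.

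Directions turned with the *Xist* covariate for *Wnt2* (-0.25), *Wnt5a* (0.54), *Wls* (0.0413) and *Vangl2* (0.0484). Scaled to epithelium markers, they turned for *Wnt5a* (0.30), *Axin2* (0.20, limma adjusted p = 0.0356), *Lef1* (0.16), *Porcn* (0.0556), *Wls* (0.34), *Fzd6* (0.16), *Kremen1* (0.13), *Ccnd1* (0.0935), *Tnfrsf19* (0.21), *Celsr1* (0.12), *Celsr2* (0.0664) and *Vangl2* (0.25), all below the shift of the median. Without 1 pool the log2 fold changes ranged from -0.13 to 0.21 for *Wnt2*, from -0.53 to 0.39 for *Wnt5a*, from -0.0305 to 0.10 for *Wnt5b*, from -0.046 to 0.0263 for *Wls* and from -0.0037 to 0.22 for *Pdgfra*. That of *Wnt7b* was between -0.52 and -0.36 (adjusted p 0.000553 to 0.306). Of 160 values of the 10 Wnt genes under alternatives, 137 kept their direction and side of the threshold, 11 passed it with the same direction and 12 turned.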

Other observations

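*Wnt5a* was not alone in its spread among pools. *Frzb*, an antagonist of the Sfrp family expressed in cartilage precursors, had 222, 52.7 and 397.6 normalized counts in control and 278.9, 51 and 198.3 in the mutant pools (1 to 3). *Tnc*, an extracellular matrix protein, had 1393.8, 846.1 and 2419.3 in control and 1514.2, 832.4 and 1304.5 in mutant pools. As for *Wnt5a*, pool 2 was the lowest of each group and control pool 3 the highest of all for both genes, which were named after their values were seen. The antagonists *Dkk2* and *Sost* had the same order of pools. The share of all tested genes with this order was not counted, so it is not particular to *Wnt5a*. Cartilage markers summed to 2913.32 to 4823.71 in control and 2907.08 to 4038 in mutant pools. The part of tracheal or other tissue in these levels was not tested.

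Among other cell types, endothelium markers had a median log2 fold change of 0.19, with 5 of 6 above 0 and none called. Cardiac markers summed to 561.59 to 668.898 normalized counts in control and 429.139 to 519.646 in mutant pools, with none called, and the source of these reads was not tested. Markers of red cells and of immune cells had medians of -0.00 and 0.12, with none called. Of the foregut and liver markers, 5 of 5 were below 0 with a median of -0.39 and none called, and the groups were separate for *Afp*, the fetal serum protein alpha-fetoprotein (log2 fold change -0.92, limma adjusted p = 0.192).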
